A study of Rattus norvegicus with 24 samples.

Results

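Lysozyme 2 (Lyz2), complement component 3 (C3), the tetraspanin Cd53 and the lymphocyte antigen 6 family gene Ly6i were followed through 4 comparisons of rat kidney RNA, as 4 of the 1561 probes that held a value on at least 1 of 24 two-colour cDNA arrays. Each gene was found by its platform symbol, and each has a single probe with values. The study compared salt-sensitive (SS) rats with strain 13, an SS rat into which chromosome 13 of another strain has been bred. Both strains were on low salt (LS) or high salt (HS), with the arrays labelled 2 weeks. These readings of the strain and diet names come from what is known of the study. The sample labels give the tissue as kidney and the series title as renal medulla; ratios carry no levels, so the tissue could not be checked against its markers. The 4 comparisons are HS over LS in strain 13, HS over LS in SS, strain 13 over SS on LS and strain 13 over SS on HS. Each comparison had 3 replicates, and each replicate was hybridised on a forward array and on a dye-swap array. Nothing in the labels gives the age of the animals or says that replicates were separate animals, so a p-value here speaks of the spread among these RNAs, which may be technical. No strain is named in 5 titles of the SS diet group, and the title of its sixth array contradicts itself, so that array was placed by the channels it names.

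All values are deposited log ratios of unstated base, so no fold is given. A positive value is read as higher on HS than on LS, or higher in strain 13 than in SS. This direction is likely and not settled, because 13 of the titles name the channels but only 1 of these belongs to a diet array. The relative signs of the comparisons rest on a closure, a sum that must hold if the signs are right: the difference between the diet ratios and the difference between the strain ratios correlated at r = 0.65 across 1006 probes (genes are not independent replicates). It was -0.23 with the SS diet comparison turned, 0.17 with the strains on LS turned and 0.29 with both turned. If the direction is wrong, every sign below turns at once.

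The 4 genes were chosen by measured values of these same arrays. Lyz2 and C3 were among the probes called between the strains on HS. Ly6i and Cd53 ranked 5 and 8 by p among 1287 probes in the diet comparison of strain 13. Values in these 2 comparisons are therefore given as a description with no test. The diet comparison in SS and the strain comparison on LS were tested in a limma fit across all probes. They are not fully separate from the choice or from each other, since arrays of different comparisons share RNAs. In replicate 3 the channel names give the same SS RNA on HS to the SS diet and the HS strain arrays. They also give the same SS RNA on LS to the SS diet and the LS strain arrays. Replicate 3 of both strain comparisons also shares a text in the titles that may mark a batch, and no other replicate does so between comparisons.

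The genes stand for different arms of innate immunity. Lyz2 encodes the lysozyme of macrophages and neutrophils, which cleaves the peptidoglycan of bacterial walls. C3 is the component on which the classical, lectin and alternative complement pathways converge, and its cleavage gives an opsonin and an anaphylatoxin. It is made mainly in liver, and also by macrophages and by kidney tubule epithelium. Cd53 is a tetraspanin of the leukocyte surface, carried by both lymphoid and myeloid cells. Ly6i belongs to a family of small surface proteins held by a glycolipid anchor, several of which mark myeloid cells or lymphocytes in the mouse. In salt-sensitive rats, macrophages and T cells enter the kidney during salt loading, and the renal medulla is among the sites where they are found. In a whole-tissue RNA sample, a change in the number of cells of a type and a change in RNA per cell cannot be told apart.

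The promoters of 3 of the genes are shown because Lyz2 and Cd53 share an element there that C3 lacks. Ly6i, whose window is not printed, lacks it too. The windows run from 250 bases before to 50 bases after the RefSeq start on GRCr8, all on the minus strand, and are written 5′ to 3′. The searched motifs were GAGGAA, the core bound by the myeloid factor PU.1, TTGCNNAA, a form of the C/EBP site, and TGANTCA, the AP-1 site, on both strands. Matches are in capitals. Lyz2 lies on chromosome 7 (chr7:54797962-54798261), Cd53 on chromosome 2 (chr2:197087847-197088146) and C3 on chromosome 9 (chr9:2201290-2201589).
Lyz2: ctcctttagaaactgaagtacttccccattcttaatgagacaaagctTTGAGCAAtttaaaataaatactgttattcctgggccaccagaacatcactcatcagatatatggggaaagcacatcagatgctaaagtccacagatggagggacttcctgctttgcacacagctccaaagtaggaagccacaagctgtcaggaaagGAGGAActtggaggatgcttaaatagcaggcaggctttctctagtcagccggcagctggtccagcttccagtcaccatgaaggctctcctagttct
Cd53: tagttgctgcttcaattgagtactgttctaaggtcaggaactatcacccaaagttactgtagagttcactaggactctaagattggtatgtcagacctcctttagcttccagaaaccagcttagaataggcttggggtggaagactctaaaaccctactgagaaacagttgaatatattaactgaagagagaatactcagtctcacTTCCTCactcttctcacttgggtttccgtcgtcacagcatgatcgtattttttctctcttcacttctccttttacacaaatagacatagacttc
C3: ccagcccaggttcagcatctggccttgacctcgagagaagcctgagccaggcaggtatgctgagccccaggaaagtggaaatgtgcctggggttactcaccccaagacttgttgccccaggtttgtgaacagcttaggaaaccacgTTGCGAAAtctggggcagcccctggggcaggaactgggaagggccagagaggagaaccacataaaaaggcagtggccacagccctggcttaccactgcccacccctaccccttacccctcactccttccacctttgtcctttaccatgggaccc
The Lyz2 window holds GAGGAA with its first base at position -46 from the start, and a C/EBP match on the opposite strand at -203. In the Cd53 window the PU.1 core lies on the opposite strand, as TTCCTC, at -44. The C3 window holds 1 C/EBP match, at -104, and no GAGGAA. The Ly6i window, on chromosome 7, holds none of the motifs, and AP-1 matched in none of the 4. Of 27457 rat promoters of the same length, 27.5% hold GAGGAA, 10.5% TTGCNNAA and 7.33% TGANTCA, so a match in a given window is common. None of the 4 genes lies on chromosome 13, the chromosome that differs between the strains.

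Lyz2 gave the most extreme value of the set. On HS its log ratio of strain 13 over SS was -2.46 in replicate 1, where only the dye-swap array held a value. In replicate 2 it was -1.13 on the forward and -0.76 on the dye-swap array, and in replicate 3 it was -1.09 and -1.18. All 5 arrays with a value thus lay below 0, and the single array of replicate 1 lay far below the rest. The mean of -1.51 ± 0.83 (SD, n = 3) was the lowest of the 1350 probes tested, and it was -1.04 without replicate 1. Lyz2 and C3 were 2 of 4 members called here, in a comparison that called 6.00% of all probes; the members were chosen on this comparison.

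On LS, Lyz2 was again below 0 on every array with a value. Its log ratio of strain 13 over SS was -0.07 in replicate 1 (dye-swap array only), -1.01 and -0.96 in replicate 2, and -0.51 in replicate 3 (forward array only). The mean was -0.52 ± 0.46 (SD, n = 3), and it did not pass (limma adjusted p = 0.369). The replicates ran from near 0 to near the values seen on HS, so the 2 diets overlap in this gene. It was -0.29 without replicate 2 and -0.75 without replicate 1.

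The diet ratios of Lyz2 in SS pointed both ways. HS over LS was 0.90 and 0.56 on the arrays of replicate 1, -0.13 and -0.34 in replicate 2, and -0.74 and -1 in replicate 3. The forward and dye-swap arrays of a replicate agreed in sign each time, so the disagreement lay between the RNA pairs and not between the dyes. The mean was -0.13 ± 0.81 (SD, n = 3; limma adjusted p = 0.869). It ran from -0.55 without replicate 1 to 0.25 without replicate 3. In strain 13 a value existed on 1 array only, the forward array of replicate 1, at -0.69. Lyz2 was not tested there. Values were missing for Lyz2 on 8 of 24 arrays, the most of the 4 genes.

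C3 was lower in strain 13 than in SS on HS on all 6 arrays. The forward and dye-swap log ratios were -0.17 and -0.53 in replicate 1, -0.18 and -0.72 in replicate 2, and -0.27 and -0.34 in replicate 3. The mean was -0.37 ± 0.07 (SD, n = 3), with replicates between -0.45 and -0.305. The replicate means were close, although the forward arrays averaged -0.21 and the dye-swap arrays -0.53.

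On LS the C3 log ratio of strain 13 over SS was 0 on the single array of replicate 1, -0.21 and -0.52 in replicate 2, and -0.42 and 0.19 in replicate 3. The mean of -0.16 ± 0.19 (SD, n = 3) did not pass (limma adjusted p = 0.271). It was -0.06 without replicate 2. No replicate lay above 0, and that of replicate 2 (-0.365) lay within the range of those on HS.

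HS over LS in SS, C3 was above 0 on all 6 arrays, at 0.09 and 0.02 in replicate 1, 0.28 and 0.21 in replicate 2, and 0.01 and 0.35 in replicate 3. The mean of 0.16 ± 0.10 (SD, n = 3) did not pass (limma adjusted p = 0.309). In strain 13 the diet ratios of C3 were 0.30 and 0.02 in replicate 1, 0.28 on the dye-swap array of replicate 2, and 0 and -0.03 in replicate 3 (mean 0.14 ± 0.15, SD, n = 3). The diet means of the strains differed by less than either SD. In strain 13 the mean was 0.07 without replicate 2 and 0.22 without replicate 3.

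Cd53 had its highest ratios in the diet comparison of strain 13. HS over LS was 0.14 in replicate 1 (forward array only), 0.39 and 0.19 in replicate 2, and 0.69 in replicate 3 (dye-swap array only). All 4 arrays lay above 0, with a mean of 0.37 ± 0.28 (SD, n = 3) that was 0.215 without replicate 3. This comparison called 0% of its 1287 probes (limma; 119 had an unadjusted p below 0.05), so no member was called.

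In SS, Cd53 was 0.24 and -0.10 in replicate 1, 0.15 and 0.30 in replicate 2, and 0.39 and 0.36 in replicate 3. It was above 0 on 5 of 6 arrays, with a mean of 0.22 ± 0.15 (SD, n = 3) that did not pass (limma adjusted p = 0.247) and was 0.15 without replicate 3. The comparison called 2.82% of its 1310 probes and 0 of the 4 members. An unadjusted p below 0.05 was found for Cd53, for Ly6i and for 255 of all 1310 probes. The replicates of SS lay between 0.07 and 0.375 and those of strain 13 between 0.14 and 0.69, so the diet ratios of the strains overlap.

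Between the strains Cd53 stayed near 0. On HS, strain 13 over SS was 0.01 in replicate 1 (dye-swap array only), -0.12 and -0.15 in replicate 2, and 0.11 and -0.05 in replicate 3 (mean -0.03 ± 0.09, SD, n = 3). On LS it was -0.17 and 0.33 in replicate 1, 0.05 and -0.37 in replicate 2, and 0 and 0.12 in replicate 3. The LS mean was -0.01 ± 0.13 (SD, n = 3; limma adjusted p = 0.972). The comparison on LS called 0% of its 1229 probes (limma; 268 had an unadjusted p below 0.05), the 4 members included. A leukocyte surface gene thus differed little in these ratios where Lyz2 had its lowest value.

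Ly6i had a value on all 24 arrays and lay above 0 on 20 of them. In strain 13, HS over LS was 0.20 and 0.59 in replicate 1, 0.63 and 0.16 in replicate 2, and 0.02 and 0.50 in replicate 3. All 6 arrays lay above 0, with a mean of 0.35 ± 0.08 (SD, n = 3). The arrays of a replicate differed by more than the replicate means did, in no fixed order of dye.

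In SS, Ly6i was also above 0 on all 6 arrays, at 0.23 and 0.20 in replicate 1, 0.29 and 0.11 in replicate 2, and 0.38 and 0.22 in replicate 3. The mean was 0.24 ± 0.05 (SD, n = 3), and it did not pass (limma adjusted p = 0.193; unadjusted p = 0.0241). It lay between 0.21 and 0.26 when a replicate was left out.

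Between the strains on HS, Ly6i had -0.04 and 0.30 in replicate 1, 0.19 and 0.54 in replicate 2, and 0.24 and 0.28 in replicate 3 (mean 0.25 ± 0.12, SD, n = 3). The ratio was above 0 on 5 of 6 arrays, the opposite side from Lyz2 and C3. On LS it was -0.62 and -0.18 in replicate 1, -0.12 and 0.12 in replicate 2, and 0.12 and 0.16 in replicate 3. The LS mean of -0.09 ± 0.28 (SD, n = 3; limma adjusted p = 0.596) rests on replicate 1 and was 0.07 without it and -0.20 without replicate 3. That replicate includes the forward array with 726 values, the fewest of all, and an SD of 0.474.

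**Figure D1:**
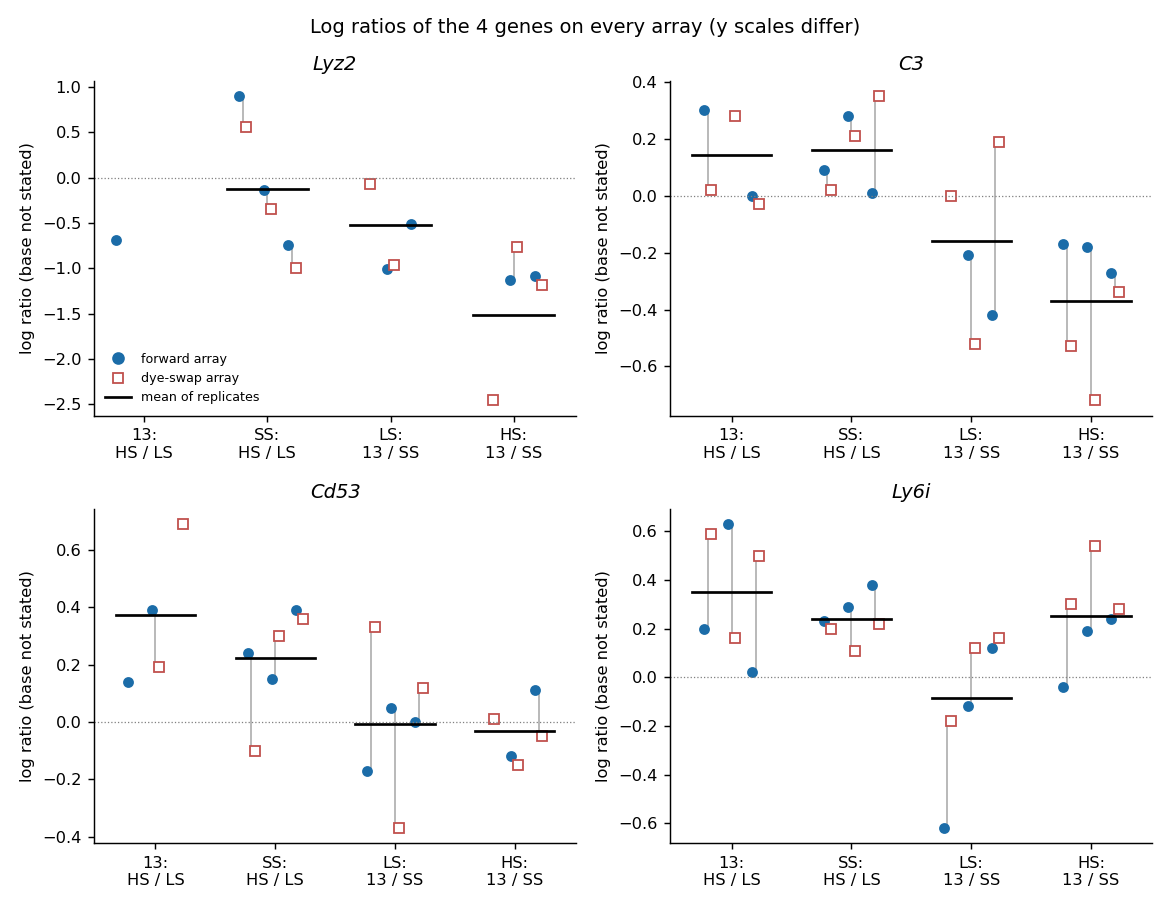
Log ratio (y axis, base not stated, scales differ between panels) of Lyz2, C3, Cd53 and Ly6i on every array in the 4 comparisons (x axis). Filled circles are forward arrays, open squares dye-swap arrays, grey lines join the arrays of a replicate and black bars are means of replicates. Lyz2 and C3 lie below 0 on every array on HS, with 1 Lyz2 array at -2.46, while Ly6i lies above 0 on all 12 diet arrays.

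Set in order, the means of Lyz2 ran from -1.51 for the strains on HS through -0.69 (n = 1) for diet in strain 13 and -0.52 for the strains on LS to -0.13 for diet in SS. The neighbours in that order do not differ beyond their SDs, and for the single value no SD exists. C3 ran from -0.37 and -0.16 between the strains (HS, then LS) to 0.14 and 0.16 for diet (strain 13, then SS), and both diet values differ by less than an SD. Cd53 ran from -0.03 (HS) and -0.01 (LS) between the strains to 0.22 and 0.37 for diet in SS and strain 13. Ly6i ran from -0.09 between the strains on LS to 0.24 (diet in SS), 0.25 (strains on HS) and 0.35 (diet in strain 13).

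How far the salt ratio differs between strains can be taken from the diet arrays or from the strain arrays. These estimates share RNAs and are not independent, so a like sign in both is no added evidence. For Lyz2, strain 13 minus SS was -0.57 on the diet arrays and HS minus LS was -0.99 on the strain arrays. For C3 the 2 estimates were -0.02 and -0.21, for Cd53 0.15 and -0.03, and for Ly6i 0.11 and 0.34. The estimate for Lyz2 from diet arrays uses 1 array of strain 13.

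The probes whose log ratios ran most like each gene over the RNA pairs were sought among named probes measured with it in at least 10 of 12 pairs. The pairs are not independent, since some share an RNA, and the probes named were the closest of 870 for Lyz2 and 989 for each other gene, so r is given as a description.

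C3 ran most like C1qb (Pearson r = 0.91, Spearman rho = 0.90, 12 pairs), a chain of the C1q molecule that starts the classical complement pathway and is made by macrophages. C1qb had -0.24, -0.60 and -0.21 for strain 13 over SS on HS, 0.18, -0.235 and -0.265 on LS, -0.08, 0.385 and 0.355 for diet in SS, and 0.20, 0.55 and 0.305 for diet in strain 13, in replicates 1 to 3. Both genes lay below 0 for strain 13 over SS on HS in every replicate. C3 was chosen on that comparison and C1qb was picked for its likeness to C3, so this is no added evidence. Within comparisons, the deviations from the means correlated at 0.72, and r was 0.86 without the 2 pairs farthest from the median of C3. Next came Ceacam4 (r = 0.90), of a family of cell adhesion molecules, and Hmgb2l1 (r = 0.88, 11 pairs). The most opposite probe was Bcat2 (r = -0.88), a mitochondrial transaminase of branched-chain amino acids.

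Cd53 ran most like Ctss (r = 0.87, rho = 0.71, 12 pairs), the lysosomal protease cathepsin S of macrophages and other antigen-presenting cells. Ctss had 0.09, 0.285 and 0.39 for diet in strain 13, in the same order of replicates as Cd53, and 0.125, -0.11 and 0.06 for the strains on HS. Within comparisons r was 0.85, and it was 0.72 without the 2 pairs farthest from the median of Cd53. Txnrd2, a mitochondrial thioredoxin reductase (r = 0.82), and Hmgb2l1 (r = 0.80, 11 pairs) followed, and Stxbp5 was the most opposite (r = -0.88, 10 pairs).

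Lyz2 ran most like Spp2 (r = 0.89, rho = 0.66, 10 pairs), a secreted phosphoprotein, Pzp (r = 0.87), a protease inhibitor of the macroglobulin family, and Gatm (r = 0.87), the proximal tubule enzyme that makes the creatine precursor. The likeness to Pzp and Gatm rests on 2 RNA pairs, the lowest on HS and the highest in the SS diet comparison: without them r was 0.29 for Pzp and 0.09 for Gatm, and 0.70 for Spp2. The mean over 15 proximal tubule markers measured in every pair was -0.81, -0.09 and -0.46 in replicates 1 to 3 of the strain comparison on HS, where Lyz2 had -2.46, -0.945 and -1.135. For diet in SS it was 0.23, -0.35 and -0.36, where Lyz2 had 0.73, -0.235 and -0.87. On LS it was -0.39, -0.11 and -0.48, where Lyz2 had -0.07, -0.985 and -0.51, so the order differs there. Over 10 pairs Lyz2 and this mean had r = 0.73 and rho = 0.36, and r = -0.35 without the 2 farthest pairs. The part of the proximal tubule share in the Lyz2 ratios was not tested. The most opposite probe to Lyz2 was Kdr (r = -0.91), a receptor of VEGF on endothelium, which kept r = -0.77 without those pairs.

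Ly6i ran most like Psma4 (r = 0.86, rho = 0.86, 12 pairs), a subunit of the proteasome. Ppp1cb, a catalytic subunit of protein phosphatase 1 (r = 0.86, rho = 0.34), and Emd, the nuclear membrane protein emerin (r = 0.85), followed. Without the 2 pairs farthest from the median of Ly6i, r was 0.76 for Psma4, 0.03 for Ppp1cb and 0.46 for Emd. The most opposite was Bad (r = -0.89, 11 pairs), a promoter of apoptosis, at -0.26 without those pairs. The closest leukocyte gene of the lists was Cd48, a surface protein of lymphocytes and other blood cells, which stood 8th (r = 0.81, rho = 0.47, 12 pairs) and had r = 0.20 without those pairs.

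Among themselves the 4 genes ran less alike. C3 and Cd53 had r = 0.63 and rho = 0.82 over 12 pairs, but 0.08 within comparisons, so the likeness lay between the comparison means. Lyz2 and C3 had r = 0.57 over 10 pairs and 0.03 within comparisons. Lyz2 and Cd53 had r = 0.23, Lyz2 and Ly6i -0.16, C3 and Ly6i 0.17, and Cd53 and Ly6i 0.25.

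**Figure D2:**
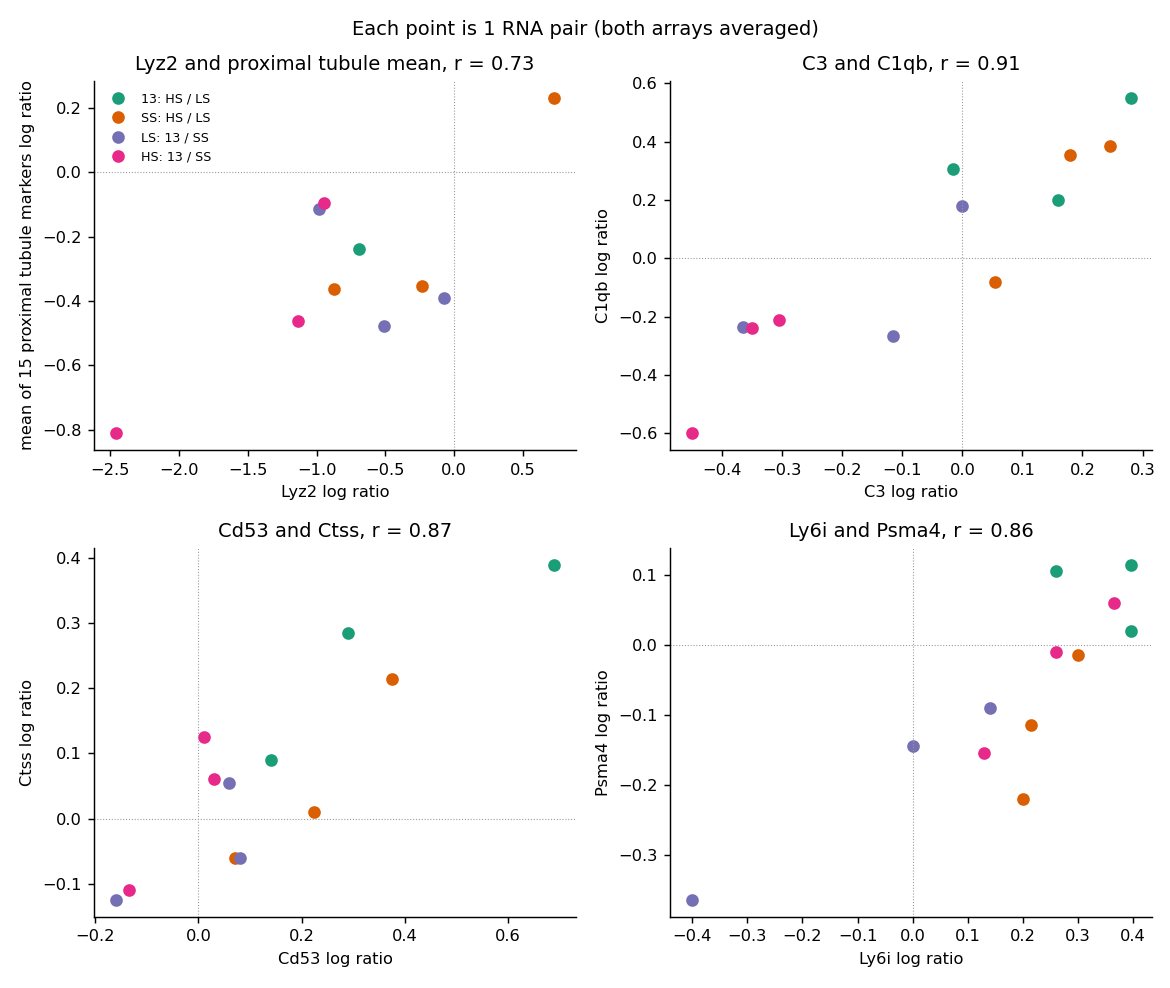
Log ratios (base not stated) of each gene (x axis) against a comparison measure (y axis), 1 point per RNA pair with both arrays averaged, coloured by comparison. Lyz2 is set against the mean of 15 proximal tubule markers, C3 against C1qb, Cd53 against Ctss and Ly6i against Psma4. C3 and C1qb rise together across the plot (r = 0.91), while the relation for Lyz2 hangs on its lowest and its highest pair.

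Other genes of the same cells and pathways were taken whole from lists set by function or cell type. For the complement components, 5 of 29 listed genes had values. On HS the one called was C3 itself, which was chosen on this comparison. Of the other 4 tested, 3 lay below 0 in strain 13 relative to SS and none passed, with a median of -0.15, against 0.02 over all 1350 probes. C1qb had -0.35 ± 0.22 (SD, n = 3; limma adjusted p = 0.119), Mbl1, a mannose-binding lectin that starts the lectin pathway, -0.26 ± 0.08 (adjusted p = 0.255), and C9, of the membrane attack complex, -0.05 ± 0.06. C1s, a serine protease of the C1 complex, stood at 0.18 ± 0.30 (adjusted p = 0.362). For diet in SS 3 of 5 lay above 0 and none passed (median 0.13), and in strain 13 3 of 4 (median 0.16). On LS 1 of 4 lay above 0, with a median of -0.05.

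Of the complement regulators, 5 of 13 listed had values, and Clu was the one that passed. Clu encodes clusterin, a secreted chaperone that also holds back the terminal complement complex. On HS it fell in strain 13 relative to SS, at -0.535, -0.585 and -0.675 (mean -0.60 ± 0.07, SD, n = 3; limma adjusted p = 0.024). In SS it rose on HS relative to LS, at 0.315, 0.75 and 1.07 (mean 0.71 ± 0.38, SD, n = 3; adjusted p = 0.0105). These comparisons share SS RNA on HS. No probe, Clu included, passed on HS without replicate 1 (172 had an unadjusted p below 0.05), nor for diet in SS without replicate 2 (123) or replicate 3 (161), and this holds for every call named below in these comparisons and for those of Lyz2 and C3. In strain 13 the diet ratios of Clu were -0.19, 0.32 and 0.15. The other regulators did not pass: on HS Cr1l, a membrane regulator encoded on chromosome 13, had 0.06 ± 0.14 and C1qbp, which binds the globular heads of C1q, -0.03 ± 0.11.

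The myeloid list gave values for 8 of 48 genes, and Cd68, Cd14, Itgam, Csf1r, Adgre1 and Aif1 had none and were not analysed here. On HS the one called was Lyz2 itself, which was chosen on this comparison, and of the other 5 tested 3 lay above 0 and 2 below. The low-affinity immunoglobulin receptors Fcgr2a and Fcgr2b, both on chromosome 13, had -0.20 ± 0.10 (adjusted p = 0.270) and -0.11 ± 0.21, S100a8, a calcium-binding protein of neutrophils and monocytes, 0.04 ± 0.03, and Ctss 0.03 ± 0.12. Defa5, counted among the 3 above 0, had 0.29 and 0.68 in the 2 replicates with a value. It is a defensin best known from the intestine and so a weak myeloid marker. The counts and medians of this list for diet in SS and on LS include it too. The remaining genes of the myeloid list tested thus lay within 0.5 of 0, against -1.51 for Lyz2. For diet in SS 4 of 6 lay above 0 and none passed (median 0.12), with Fcgr2b highest at 0.50 (n = 2; adjusted p = 0.0971) and Fcgr2a at 0.18 ± 0.27. On LS 2 of 5 lay above 0 (median -0.04).

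Of the genes shared by most leukocytes, 4 of 20 listed had values, and Ptprc was not analysed here. Besides Cd53, which was chosen on its diet ratio in strain 13, the other 3 lay above 0 in that comparison (median 0.15, against 0.01 over all 1287 probes), and none passed. These were Spn, the sialoglycoprotein CD43, at 0.30 ± 0.23, Cd44, a hyaluronan receptor also found on other cells, at 0.15 ± 0.11, and the tetraspanin Cd37 at 0.03 ± 0.36. In SS 3 of 4 lay above 0 (median 0.20), with Cd37 at 0.36 ± 0.30 (n = 2) and Cd44 at -0.04 ± 0.05. On HS between the strains the median was -0.02. Of the lymphoid markers 7 of 48 had values, and none passed in any comparison. Their medians were 0.13 and 0.01 for diet (strain 13, then SS) and 0.11 and 0.09 between the strains (LS, then HS). On HS Cxcr4, a chemokine receptor encoded on chromosome 13, was lowest at -0.35 ± 0.13 (limma adjusted p = 0.190). There perforin (Prf1) had 0.17 ± 0.18, and Cd24, also found on other cells such as kidney epithelium, 0.16 ± 0.14. For diet in SS Cd24 had 0.28 ± 0.06 (limma adjusted p = 0.0617). Cd3e, Cd4 and Cd8a were not analysed here.

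C3 is itself an acute-phase protein, and others of that class were measured. Cp, the copper-carrying ferroxidase ceruloplasmin, rose on HS in SS (0.19, 0.42 and 0.41; limma adjusted p = 0.0483) and had -0.08, -0.165 and -0.385 between the strains on HS (adjusted p = 0.149). Apcs, the serum amyloid P component encoded on chromosome 13, was lower in strain 13 than in SS on HS. It had -0.46 in each of 2 replicates (limma adjusted p = 0.024, n = 2). A2m, a protease inhibitor, had 0.97 ± 0.50 for diet in SS (adjusted p = 0.0925) and -0.98 on HS between the strains (n = 2; adjusted p = 0.123). For diet in SS 7 of 10 tested lay above 0 and 3 below, and 1 rose and 0 fell (median 0.17). Between the strains on HS 4 of 11 lay above 0 and 7 below, where 0 rose and 1 fell (median -0.21). Not all moved like C3. The list mixes proteins that rise in an acute-phase response with some that fall in it, such as Tf and Ttr. Its counts and medians therefore do not measure such a response. Crp, only a weak acute-phase protein in the rat, had -0.13 ± 0.02 for diet in SS and 0.13 ± 0.03 on HS. Tf had -0.19 ± 0.19 and -0.39 ± 0.26, and Pzp -0.06 ± 0.36 and -0.39 ± 0.30. Ttr had 0.06 ± 0.14 on HS, and Fgb -0.40 ± 0.31 (n = 2). Serpina3n had 0.455 ± 0.22 (n = 2) for diet in SS. Neither diet in strain 13 nor the strains on LS had a call among the 8 tested. In the antigen presentation list, 8 of 9 lay above 0 for diet in SS (median 0.27 against -0.01 over all 1310 probes) and 1 rose, the class II chaperone RT1-DMa, at 0.35, 0.335 and 0.355 (adjusted p = 0.0477). None of that list passed in the other comparisons. Of 68 chemokine, cytokine and adhesion genes 14 had values, and 1 of 10 tested passed both for diet in SS and on HS. This was Spp1, which encodes osteopontin, a matrix protein that attracts macrophages. On HS it was lower in strain 13 than in SS (-0.285, -0.33 and -0.50, limma adjusted p = 0.024). In SS it rose on HS relative to LS (0.325, 0.495 and 0.375, limma adjusted p = 0.0179). These comparisons share an RNA. For diet in strain 13 it had 0.26, 0.165 and -0.01. Its log ratios ran 4th most like those of C3 (r = 0.87, rho = 0.85, 12 pairs).

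Family members show how far each gene moved with its relatives. Ly6c, which neighbours Ly6i in its cluster on chromosome 7, had 0.38, 0.46 and 0.14 for diet in strain 13, against 0.395, 0.395 and 0.26 for Ly6i. In the SS diet comparison Ly6c had 0.23, 0.31 and -0.095 (mean 0.15 ± 0.21). Between the strains it had 0.13 ± 0.13 on HS and 0.03 ± 0.05 on LS. Thy1 was on the LY6 list, but it is a surface protein of the immunoglobulin family, encoded on chromosome 8, and no relative of Ly6i. For diet in strain 13 Thy1 had -0.155, -0.09 and 0.54 (mean 0.10 ± 0.38). It had 0.24 ± 0.28 for diet in SS and 0.19 ± 0.17 between the strains on HS. On LS Thy1 had 0.275 ± 0.04 (n = 2), where Ly6i had -0.09. How far the cDNA probes of Ly6i and Ly6c bind each other's RNA was not tested. Of the tetraspanins, 6 of 21 listed had values and none passed. On HS in SS, Tspan8 had 0.33 ± 0.14 (adjusted p = 0.0502), Cd81 0.22 ± 0.06, Cd63 0.12 ± 0.08 and Cd82 -0.05 ± 0.09, beside 0.22 for Cd53. For diet in strain 13, where Cd53 had 0.37, these 4 lay between -0.10 and 0.17. Among other antimicrobial proteins on HS, Defb1, a defensin of kidney epithelium, had 0.17 ± 0.05 and Lcn2, lipocalin 2, 0.26 ± 0.19, on the other side of 0 from Lyz2.

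**Figure D3:**
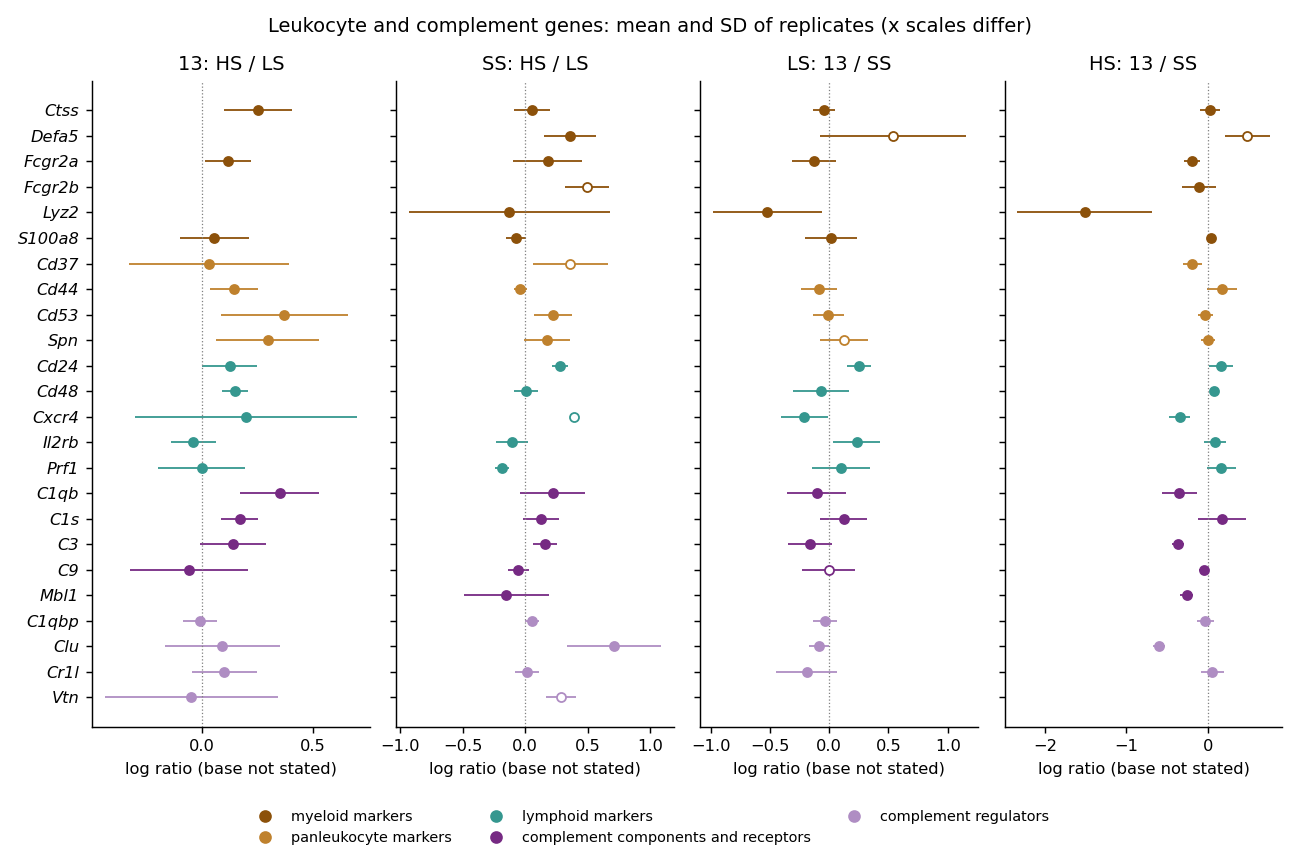
Mean log ratio (x axis, base not stated, scales differ between panels) with SD over replicates for leukocyte and complement genes (rows) in the 4 comparisons, coloured by list; filled points have 3 replicates and open points 2, and genes without 2 replicates in a panel have no point there. On HS Lyz2 at -1.51 lies far left of the other genes of the myeloid list, while C3 at -0.37, C1qb at -0.35 and Clu at -0.60 lie to the left of 0.

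Markers of other cells moved in the same comparisons and are given beside these results. Over all probes between the strains, 739 of 1350 lay above 0 on HS (6.00% called) and 680 of 1229 on LS (0% called). For diet, 632 of 1310 lay above 0 in SS (2.82% called) and 699 of 1287 in strain 13 (0% called). Of 16 proximal tubule markers tested between the strains on HS, 16 lay below 0 (median -0.41). Of these 3 were called lower in strain 13 than in SS (Cyp2c23, Cyp2e1 and Gatm). Between the strains on LS 17 of 17 lay below 0 with none called (median -0.30). For diet, 16 of 17 lay below 0 in strain 13 (median -0.34), where Cd53 and Ly6i had their highest means, and 15 of 17 in SS (median -0.16), with none called in either. Of 12 fibroblast and matrix markers, 11 lay above 0 for diet in strain 13 and none was called (median 0.14). Of 13 in SS, 12 lay above 0 and 5 rose, namely Col1a1, Col3a1, Mgp, Timp1 and Vim (median 0.37), while between the strains on HS 2 fell, Mgp and Vim (median -0.20). The 9 medullary tubule markers measured were all above 0 on HS between the strains, where 5 rose, namely Aqp3, Atp1b1, Egf, Fxyd4 and Scnn1a (median 0.25). Of the endothelial list 2 genes were tested on HS. Kdr rose, at 0.445, 0.205 and 0.295 (limma adjusted p = 0.0241). Aqp1, a water channel that kidney tubules also express, had 0.055 ± 0.084 (limma adjusted p = 0.731). Of 4 haemoglobin, platelet and red cell genes tested for diet in SS, and of 5 on HS, none passed. The part of these cell types in the ratios of the 4 genes was not tested.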

How the data were processed

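The deposited values are log ratios of both channels of each array, with log base, background correction, spot filter and normalization not given in the sources used here. In the deposited table, array means lie within 0.0049 of 0, and 726 to 1402 probes held a value per array. Arrays carry no counts, so their number limits the precision. Gene names are those of the platform table, brought up to date through RefSeq (GRCr8) identifiers. Promoters of all 4 genes matched RefSeq by gene identifier. The arrays of a replicate were averaged, and a linear model with 1 mean per comparison was fitted across all probes to the 12 RNA pairs (limma 3.58.1, R 4.3.3), each mean tested against 0 (two-sided) where at least 2 of 3 replicates had a value, with Benjamini-Hochberg adjustment at 0.05. The fit was tested on simulated data. No fold is computed. The members and gene lists were chosen with earlier results of these data known. Named are the 4 genes, called or extreme genes of the leukocyte, complement and acute-phase lists, called genes of the other cell type lists, the genes' families, and the 3 closest and the most opposite probe of each. RT1-DMa and Spp1 lie outside this rule and were named after their values were seen. Cd48 falls within the rule, but its likeness to Ly6i was likewise picked after the values were seen. Among genes that meet the rule, Il2rb and Vtn are given no values and Cd48 no log ratios. Extreme values from a single replicate were also left out of the results. These include Gzmc (1.66), Alox5 (0.55) and Fgg (-0.60) on HS and Cd55 (-0.59) for diet in SS. Replicate numbers were checked by correlating, across probes, how same-numbered replicates deviated from their means. The correlations were 0.21, 0.17 and 0.21 between the 2 diet comparisons, and -0.63, -0.56 and -0.29 between SS diet and the strains on HS. Between SS diet and the strains on LS they were -0.03, -0.19 and 0.41. Diet in strain 13 had -0.06, 0.02 and -0.03 with the strains on HS, and -0.22, -0.30 and 0.10 with those on LS. The 2 strain comparisons had 0.06, 0.40 and -0.01. The check thus does not settle the numbering for every comparison. A fit with the number as a block was an alternative.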

Additional observations from a re-analysis of the deposited data

Results flagged for a closer look

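The Lyz2 log ratio of -2.46 on the dye-swap array of replicate 1, strain 13 over SS on HS, stood apart from the other 4 arrays of its comparison, with a gap of 0.753 of the whole range against a critical value of 0.71. Among the strain arrays on LS, 1 stood apart (replicate 1, forward), with 726 values and an SD of 0.474. Chance would single out about 1 in 20 of the 23 sets examined. Leaving the LS array out changed no call, and Lyz2 and C3 have no value on it.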

How the results depend on the processing

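Of 167 values of the 4 genes under the alternatives, 55 equalled the reported value, mostly because the alternative alters only the test, and 112 differed from it. Tests were made for diet in SS and on LS alone, where 0 of 90 passed (lowest limma adjusted p = 0.115). Among the values without a test, 5 moved by more than the spread between replicates or had no spread to be set against. Scaling arrays to equal spread gave -0.66 for Lyz2 in strain 13. On HS, forward and dye-swap arrays alone, where dye effects do not cancel, gave -0.21 and -0.53 for C3 and 0.13 and 0.37 for Ly6i. A sign changed in 9 values, of Lyz2 for diet in SS, of Cd53 between the strains and of Ly6i on LS.

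Counts of called probes varied more. On HS, 81 of 1350 passed (49 higher, 32 lower). Without 1 replicate it was 0 (replicate 1) to 19 (replicate 3), with the replicate block 40 (30 higher, 10 lower), with equal spread 13 (10 higher, 3 lower), with forward arrays 127, with dye-swap arrays 411, fitted alone 0 (304 with an unadjusted p below 0.05), and with the batch text of the titles as a random effect 231, at an estimated correlation of -0.47. For diet in SS, 37 passed. It was 0 without replicate 2 or 3 and 57 without replicate 1, 118 and 62 on forward and dye-swap arrays, 57 for probes on every array, 0 fitted alone (204 with an unadjusted p below 0.05) and 60 without the array with a conflicting label. On LS it was 0 to 1 without 1 replicate, 23 with equal spread (8 higher, 15 lower), 70 and 51 by orientation and 44 for probes on every array. In strain 13 it was 15 and 3 by orientation. No tested value of the 4 genes passed with the replicate block, as without it; it gave 31 calls for diet in SS and 0 for diet in strain 13 and on LS (limma; 114 and 266 with an unadjusted p below 0.05). Leaving out the LS array with the fewest values was added after seeing the data.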
